A study of Mus musculus with 9 samples.

Results

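Interferon-inducible GTPases were followed by RNA-seq in immortalized striatal cells of the mouse, 3 lines that model Huntington disease (HD). The members were chosen by name as 10 of the 36410 genes listed in the count table, and 10 of 10 were found there. They are the guanylate-binding proteins Gbp2, Gbp3, Gbp5 and Gbp7, the immunity-related GTPases Irgm1, Irgm2, Igtp and Iigp1, and the dynamin-like Mx1 and Mx2. The lines come from knock-in embryos of the C57/BL6 strain. Control cells (STHdhQ7/Q7) carry 7 glutamine codons in exon 1 of both huntingtin alleles, HD-het cells (STHdhQ7/Q111) carry 7 and 111, and HD-homo cells (STHdhQ111/Q111) carry 111 on both, with 3 libraries from each line. Each genotype is a single line, so that line and genotype cannot be told apart, and the labels do not say whether the 3 libraries came from separate cultures. P values therefore measure the spread between libraries only, which may be technical.

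These GTPases are among the most strongly induced genes of an interferon response. Interferon receptors activate JAK kinases, which phosphorylate transcription factors of the STAT family. STAT-family factors bind GAS elements or, in a complex with IRF9, interferon-stimulated response elements (ISRE). Guanylate-binding proteins (GBPs) and immunity-related GTPases (IRGs) assemble on membranes around intracellular pathogens and can break them, Irgm1, Irgm2 and Igtp (Irgm3) belong to the regulatory IRGs that keep the effector IRGs such as Iigp1 off the cell's own membranes, and Mx proteins block viruses by binding their nucleoproteins. The lists of genes set beside the members were chosen with earlier results of these data known.

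The count totals of the libraries ran from 29507665 to 41197931. Levels are given as counts per megaread (CPM) on totals normalized by TMM, and 3 counts, taken as the smallest number that can show a gene, corresponded to 0.0710 to 0.101 CPM per library. This floor covers counting error only. Htt, the knocked-in gene, was at 99.97 ± 6.00 CPM in control, 62.3 ± 1.5 CPM in HD-het and 20.2 ± 1.3 CPM in HD-homo cells (SD, n = 3). The cells had little of the expression that defines mature striatal neurons: Drd1 was at 0 in all 9 libraries, and 8 markers of medium spiny neurons summed to 1.55 to 4.53 CPM. A list of 6 general neuron markers summed to 89 to 114.4 CPM, most of it Map2 and Tubb3, and 3 of the 6 were at the floor in each line. Of 8 markers of microglia and macrophages, Aif1, Tyrobp and Adgre1 were at 0 in all libraries, and the 8 summed to 2.52 to 2.84 CPM in control, 3.72 to 6.26 CPM in HD-het and 4.31 to 4.92 CPM in HD-homo cells. Csf1r was at 0.544 CPM in control, 0.667 CPM in HD-het and 2.035 CPM in HD-homo cells, and Cd68 at 1.82, 3.47 and 2.45 CPM. Of these markers 2 were tested, and 1 was higher and 0 lower in each HD line against control. Against control cells, 4 of 4 markers of neural progenitors were lower in HD-homo cells, whereas HD-het cells had more Nes and Pax6 and less Sox2 and Vim (edgeR adjusted p under 0.05 for each). The 4 summed to 5894 to 6356 CPM in control, 5315 to 5819 CPM in HD-het and 4157 to 4574 CPM in HD-homo cells. Most of this sum was Vim, with means of 5383, 4568 and 4264 CPM in the same order, and the other 3 markers fell much further. Nes was at 526, 839.5 and 28.4 CPM, Sox2 at 128, 82.9 and 5.48 CPM, and Pax6 at 32.1, 48.2 and 0.132 CPM. Of 5 fibroblast or mesenchymal markers, 4 were higher and 0 lower in HD-homo cells and 3 were higher and 2 lower in HD-het cells against control, with sums of 2565 to 3469 CPM in control, 7860 to 9099 CPM in HD-het and 6187 to 6716 CPM in HD-homo cells. Col1a2 among them was at 73.4 CPM in control, 3.15 CPM in HD-het and 1494 CPM in HD-homo cells. Over all tested genes, 29.6% were higher and 28.9% lower in HD-homo cells and 33.8% and 31.4% in HD-het cells against control. The part of the markers in the results below was not tested. In bulk RNA, fewer cells that express a gene and less of its RNA per cell cannot be told apart.

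Of the 10 members, 8 passed the filter on low counts and Gbp5 and Iigp1 did not. In HD-homo against control cells, 7 of the 8 were higher (edgeR quasi-likelihood test, adjusted p under 0.05) and 0 were lower, where 29.6% of all 13508 tested genes were higher and 28.9% lower. The 7 genes are Gbp2, Gbp3, Gbp7, Irgm2, Igtp, Mx1 and Mx2. In HD-het against control cells, 4 of the 8 were higher (Gbp2, Gbp7, Irgm1 and Igtp) and 0 were lower, beside 33.8% higher and 31.4% lower over all genes. In HD-homo against HD-het cells, 7 were higher and Irgm1 was lower, beside 36.0% and 35.6%. The median log2 fold change of the 8 members was 4.23 in HD-homo and 1.14 in HD-het cells against control, and 2.59 between the HD lines, where the medians over all genes were 0.01, 0.03 and 0.00. The libraries of the lines did not overlap for 7, 4 and 8 of the 8 members in these comparisons, beside 65.3%, 74.0% and 72.8% of all tested genes. The first 2 comparisons share the control libraries. A member that passed the filter through the line where it is high had to differ, so these counts and medians describe the 8 genes and not the families.

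**Figure D1:**
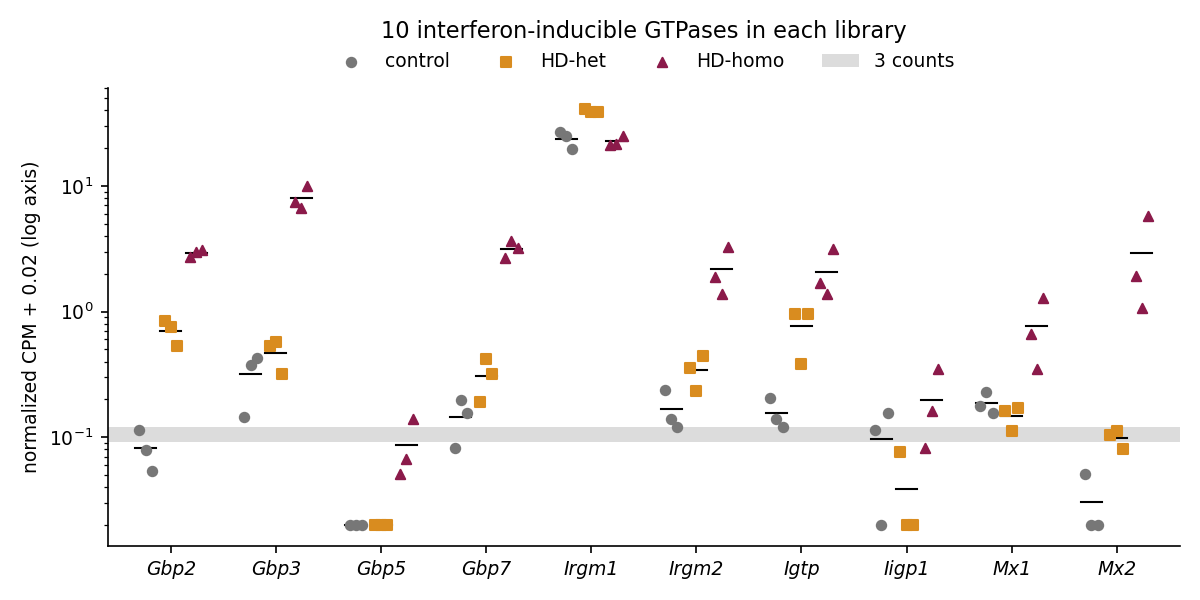
Level of each of the 10 GTPases in each of the 9 libraries, as normalized CPM plus 0.02 on a log axis, with control cells as circles, HD-het cells as squares, HD-homo cells as triangles and a bar at the mean of the 3 libraries. The grey band is the level of 3 counts; Irgm1 lies above 19 CPM throughout and is highest in HD-het cells, while the other members lie under 1 CPM in control cells and are highest on average in HD-homo cells.

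Of the GBPs of chromosome 3, the 3 tested members were higher in HD-homo cells than in either other line. Gbp7, Gbp3 and Gbp2, each with 11 exons, lie in this order on the plus strand of chromosome 3 (GRCm38 chr3:142530342-142550149, chr3:142560026-142573209 and chr3:142620602-142638008), with Gbp2b before Gbp2 and Gbp5 (chr3:142493978-142522344) at the near end. The stretches before their start sites are shown with those of the IRG members, because Gbp2, Gbp3, Gbp7, Irgm2 and Igtp rose together in HD-homo cells while Irgm1 did not, and the windows can be searched for the elements named above. RefSeq windows of 250 bases before to 50 bases after the start site (GRCm38.p6) were matched by symbol for 7 of the 10 members, and Iigp1, Mx1 and Mx2 had no entry. Below are the 120 bases up to the start site of 6 of them, in the direction of the gene, with matches to the ISRE core GAAANNGAA on either strand and to GAS, TTCNNNGAA, in capitals. For Gbp7 and Irgm2, the bases after this start site were not found in a GENCODE transcript of the gene. A second Gbp3 window, which holds no match, is not shown.
Gbp2, chr3:142620543-142620662, plus strand: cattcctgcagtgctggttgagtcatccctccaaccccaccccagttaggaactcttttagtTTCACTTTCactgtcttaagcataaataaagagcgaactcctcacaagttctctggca
Gbp3, chr3:142559924-142560043, plus strand: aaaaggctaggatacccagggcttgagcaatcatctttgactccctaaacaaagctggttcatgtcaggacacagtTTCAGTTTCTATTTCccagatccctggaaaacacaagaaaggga
Gbp7, chr3:142530216-142530335, plus strand: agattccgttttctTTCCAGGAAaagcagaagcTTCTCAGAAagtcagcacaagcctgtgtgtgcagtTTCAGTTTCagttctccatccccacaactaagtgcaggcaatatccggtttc
Irgm1, chr11:48871421-48871540, minus strand: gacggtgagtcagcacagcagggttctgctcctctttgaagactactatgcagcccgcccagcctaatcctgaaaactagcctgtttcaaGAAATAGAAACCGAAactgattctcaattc
Irgm2, chr11:58214857-58214976, plus strand: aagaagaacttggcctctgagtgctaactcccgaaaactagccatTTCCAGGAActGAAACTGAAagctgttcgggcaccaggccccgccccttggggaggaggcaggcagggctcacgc
Igtp, chr11:58199436-58199555, plus strand: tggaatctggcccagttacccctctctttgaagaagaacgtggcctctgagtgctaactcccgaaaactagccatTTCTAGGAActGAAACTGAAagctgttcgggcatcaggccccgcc

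The ISRE core was found in the windows of 7 of 7 members and GAS in those of 4 (Gbp5, Gbp7, Irgm2 and Igtp). Of 10 related GTPase genes outside the list that had a window, 6 held the ISRE core and 4 held GAS. Windows on chromosome 18, where some relatives lie, were left out of these counts and not of the shares over all genes. Over all 27025 genes with a window, 9.76% held the ISRE core, 9.55% held GAS and 1.24% held both, and over their 32851 windows the shares were 8.56%, 8.30% and 1.07%. The 2 motifs share letters, but no match to one overlapped a match to the other in these windows. In Gbp3 and Irgm1, 2 ISRE cores overlap by 3 bases. In Irgm2 and Igtp the sequence around the elements is nearly the same, and GAS begins 11 bases before the ISRE core, with 2 bases between. That arrangement occurred in 8 of the 32851 windows (0.0244%), of which 5 belong to IRG genes: Irgm2, Igtp, Tgtp1, Tgtp2 and Gm12185. It was looked for after the windows had been seen. A match is a stretch of letters and not a measured site.

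**Figure D2:**
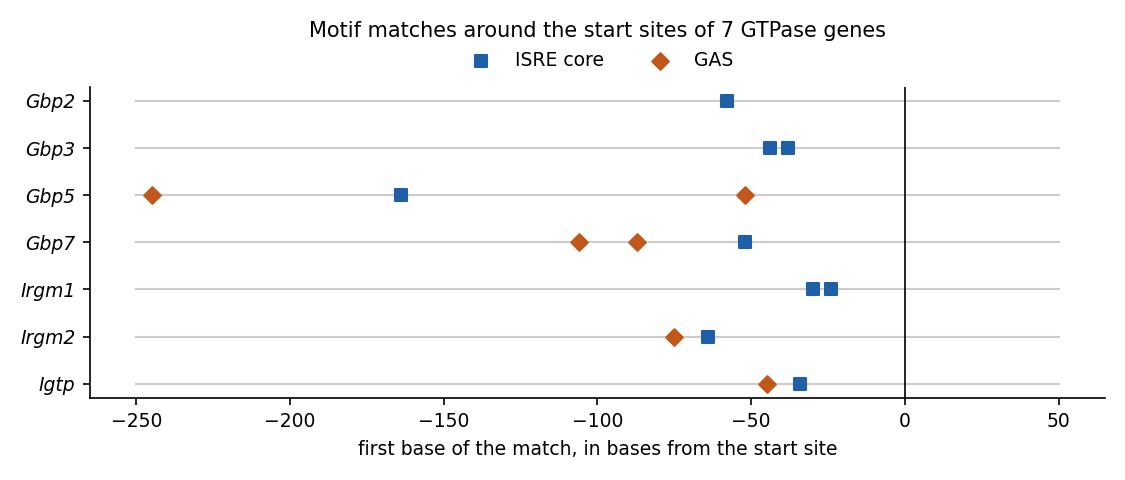
First base of each match to the ISRE core (squares) and to GAS (diamonds), in bases from the RefSeq start site at 0, in the windows of 7 members (grey lines, from 250 bases before to 50 after; for Gbp3 the window that holds matches). Irgm2 and Igtp have the 2 motifs side by side, at -75 and -64 and at -45 and -34, and Gbp2, Gbp3 and Irgm1 have the ISRE core alone.

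Gbp3, a GBP that is recruited to vacuoles holding pathogens, was at 0.124, 0.357 and 0.406 CPM in the control libraries, 0.508, 0.549 and 0.300 CPM in HD-het and 7.48, 6.63 and 9.96 CPM in HD-homo cells. All HD-homo libraries lay far above the rest, while control and HD-het libraries overlapped. HD-homo cells exceeded control cells 27.1-fold (log2 fold change 4.75, 95% interval 4.09 to 5.44, edgeR adjusted p = 1.62e-07) and HD-het cells 17.8-fold (adjusted p = 1.74e-07). HD-het and control cells did not differ past the threshold (log2 fold change 0.62, interval -0.34 to 1.58, edgeR adjusted p = 0.229).

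Gbp7, a second GBP of this cluster, had 2, 6 and 4 counts in control, 6, 13 and 10 in HD-het and 86, 152 and 107 in HD-homo cells, or 0.0622, 0.178 and 0.135 CPM, 0.169, 0.396 and 0.300 CPM, and 2.64, 3.60 and 3.19 CPM. HD-homo cells stood apart and the other lines overlapped. For Gbp7, HD-homo cells exceeded control cells 25.1-fold (log2 fold change 4.61, interval 3.92 to 5.38, edgeR adjusted p = 3.91e-07) and HD-het cells 10.9-fold. The call in HD-het against control cells (log2 fold change 1.16, edgeR adjusted p = 0.0472) was lost with no filter on low counts, with the Wald test of DESeq2, and without control 1, control 3, HD-het 2, HD-het 3 or HD-homo 3, with adjusted p of 0.0533 to 0.169. Gbp7 did not pass the filter when only these 2 lines were fitted. Of the 50-base words of Gbp7 transcripts, 10.5% also occur in the annotated gene Gm43802, so that some of its reads could be counted there.

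Gbp2, which acts with other GBPs in the lysis of vacuoles, had 3, 2 and 1 counts in control cells (0.0933, 0.0595 and 0.0338 CPM). It had 0.818, 0.732 and 0.509 CPM in HD-het and 2.70, 2.94 and 3.07 CPM in HD-homo cells. The 3 lines did not overlap at any of these levels. The ratio of summed counts to control was 46.2 in HD-homo cells (95% counting interval 20.99 to 126.8; edgeR adjusted p = 5.67e-08) and 10.9 in HD-het cells (4.78 to 30.8; adjusted p = 1.54e-05), and HD-homo exceeded HD-het cells 4.23-fold (adjusted p = 3.44e-06). The 3 calls of Gbp2 held under all 15 alternatives in which it was tested, of which another prior count cannot change a call. Gbp5, a GBP linked to inflammasome activation, had 0 counts in all 6 control and HD-het libraries and 1, 2 and 4 counts in HD-homo cells, a mean of 0.0658 CPM that is under the floor, so no fold is given.

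The IRG members split. Irgm2 and Igtp lie on the plus strand of chromosome 11 (chr11:58199618-58222782 and chr11:58199556-58207591, 3 exons each in the transcripts used here), and an annotated Irgm2 transcript begins inside Igtp. Igtp shares 11.8% of its 50-base words with Irgm2, so that their reads cannot be separated completely. Irgm1 lies elsewhere on the same chromosome (chr11:48861968-48871683, minus strand, 3 exons) and shares 0.310% of its words with any other gene.

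Irgm2 had 0.218, 0.119 and 0.101 CPM in control, 0.338, 0.213 and 0.419 CPM in HD-het and 1.87, 1.35 and 3.25 CPM in HD-homo cells. HD-homo libraries lay above all others and HD-homo 3 was the highest. For Irgm2, the excess of HD-homo cells was 14.8-fold over control (log2 fold change 3.83, interval 2.87 to 4.86, edgeR adjusted p = 2.30e-05) and 6.66-fold over HD-het cells (adjusted p = 6.35e-05). In HD-het against control cells the log2 fold change was 1.13 (interval -0.18 to 2.47, edgeR adjusted p = 0.117), which passed the threshold without HD-homo 3 (adjusted p = 0.0426).

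Igtp had 0.187, 0.119 and 0.101 CPM in control, 0.931, 0.366 and 0.929 CPM in HD-het and 1.66, 1.35 and 3.13 CPM in HD-homo cells. The libraries of the 3 lines followed the order control, HD-het, HD-homo without overlap, and HD-homo 3 was again the highest. Against control, Igtp was 15.1-fold higher in HD-homo (log2 fold change 3.86, interval 2.77 to 5.03, edgeR adjusted p = 5.94e-05) and 5.47-fold higher in HD-het cells (2.42, interval 1.15 to 3.75, adjusted p = 0.00346). The difference between the HD lines was 2.76-fold (edgeR adjusted p = 0.00482).

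Irgm1, the IRG known for its role in autophagy and mitochondrial control, was the most abundant member per length in every line. It had 26.9, 24.9 and 19.6 CPM in control, 41.0, 38.8 and 38.6 CPM in HD-het and 21.3, 21.4 and 25.2 CPM in HD-homo cells. HD-het cells were highest and control and HD-homo cells overlapped. Irgm1 was 1.66-fold higher in HD-het than in control cells (log2 fold change 0.73, interval 0.49 to 0.97, edgeR adjusted p = 1.42e-04) and 1.74-fold lower when HD-homo were compared with HD-het cells (adjusted p = 5.09e-05). Between HD-homo and control cells it did not pass the threshold (log2 fold change -0.07, interval -0.32 to 0.17, edgeR adjusted p = 0.597). Irgm1 was the only one of the 8 tested members whose HD-homo libraries were not above those of HD-het cells.

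Iigp1, an effector IRG of chromosome 18, was close to the floor, with 3, 0 and 4 counts in control, 2, 0 and 0 in HD-het and 2, 6 and 11 in HD-homo cells. Control and HD-homo libraries overlapped. The ratio of summed counts in HD-homo to HD-het cells was 8.91 (counting interval 2.15 to 78.9), and Iigp1 was not tested after the filter.

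The Mx genes lie on chromosome 16, Mx1 on the minus strand with 15 exons (chr16:97447035-97462907) and Mx2 on the plus strand with 14 exons (chr16:97535308-97560900). Mx2 is annotated as a polymorphic pseudogene and Mx1 as protein coding. Common laboratory strains carry defective Mx genes, so that the counts of both are of transcripts and say nothing of a protein. Mx1 had 0.156, 0.208 and 0.135 CPM in control, 0.141, 0.0915 and 0.1498 CPM in HD-het and 0.644, 0.332 and 1.25 CPM in HD-homo cells. HD-homo cells were above the other lines, which overlapped. In HD-homo cells Mx1 exceeded control 4.47-fold (log2 fold change 2.09, interval 0.98 to 3.25, edgeR adjusted p = 0.00457), and without HD-homo 3 the log2 value was 1.47 (adjusted p = 0.0109). It exceeded HD-het cells 5.83-fold (adjusted p = 0.00141), and HD-het and control cells did not differ past the threshold (log2 fold change -0.38, interval -1.983 to 1.201, edgeR adjusted p = 0.653).

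Mx2 had 1, 0 and 0 counts in control, 3, 3 and 2 in HD-het and 62, 44 and 192 in HD-homo cells, or 1.90, 1.04 and 5.73 CPM in the last. Only HD-homo libraries had more than 3 counts, and HD-homo 3 had the most. The ratio of summed counts was 262 to control (counting interval 46.7 to 10390; edgeR adjusted p = 1.04e-04) and 34.9 to HD-het cells (17.5 to 81.7; adjusted p = 1.22e-04). The fitted log2 fold change against control was 7.66, which became 6.67 without HD-homo 3 and 9.61 without control 1, and it depends on the prior count. No fold is given for HD-het against control cells, both of which were at or under the floor.

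**Figure D3:**
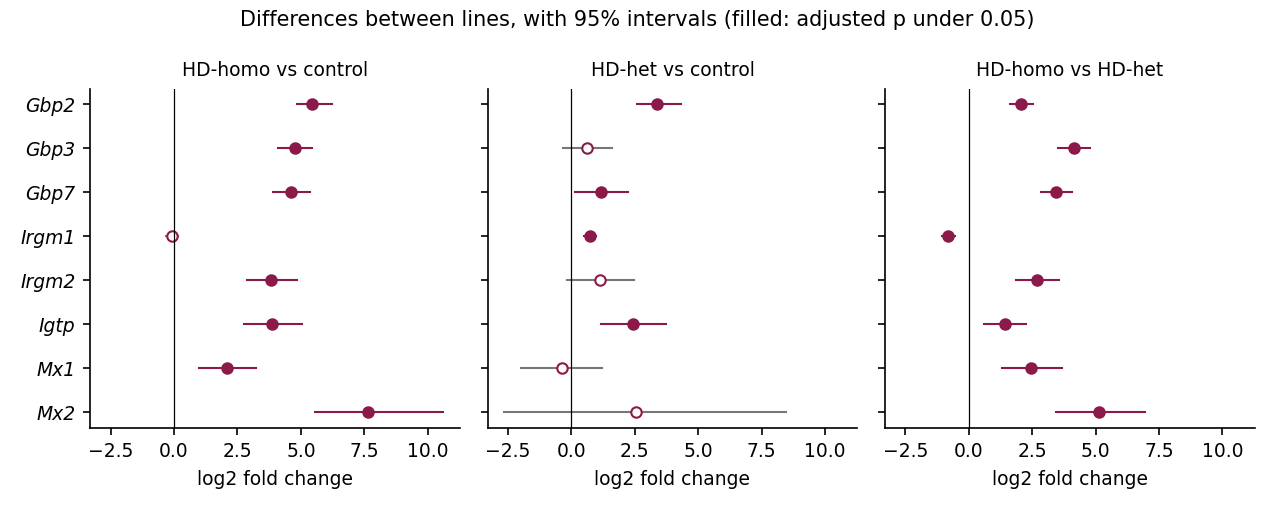
Log2 fold change of the 8 tested members in the 3 comparisons, fitted by edgeR, with 95% intervals of the quasi-likelihood model on a shared axis. Filled points passed adjusted p under 0.05; all genes but Irgm1 lie right of 0 in both comparisons of HD-homo cells, and Irgm1 lies left of 0 between the HD lines.

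Members were set in order by CPM per kilobase of their longest coding transcript. In HD-homo cells this order was Irgm1 at 10.02, Gbp3 at 2.99, Mx2 at 1.196, Gbp2 at 1.15, Igtp at 1.01, Irgm2 at 0.611, Gbp7 at 0.560, Mx1 at 0.219, Iigp1 at 0.0568 and Gbp5 at 0.0215 CPM per kilobase. Neighbours from Mx2 to Gbp7 overlapped between libraries, whereas Irgm1 and Gbp3 each stood clear of the next gene. In control cells Irgm1 was at 10.5 CPM per kilobase, and the other members reached at most 0.110 (Gbp3). In HD-het cells Irgm1 was at 17.5 and Igtp, the next, at 0.367 CPM per kilobase. HD-homo 3 carried the highest summed level of the 10 members, 55.2 CPM beside 40.2 and 38.9 CPM in HD-homo 1 and 2. Summed levels were 20.6 to 27.8 CPM in control and 41.2 to 44.1 CPM in HD-het cells, and Irgm1 was the largest single part of the sum in each library. In HD-homo 3 it held 25.2 of the 55.2 CPM.

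Relatives of the members outside the list were read from the same fit. They are 22 entries with different counts in the table, because Gvin1 and Gm4070, nearly identical genes of chromosome 7, had equal counts in every library and were counted once. Of the 22, 10 passed the filter. In HD-homo against control cells 3 were higher (Gbp2b, Gbp9 and Gvin1) and 3 lower (9930111J21Rik1, 9930111J21Rik2 and Irgq), in HD-het against control cells 7 were higher and 0 lower, and in HD-homo against HD-het cells 2 were higher (Gbp2b and Gvin1) and 6 lower. The shares over all tested genes were 29.6% and 28.9%, 33.8% and 31.4%, and 36.0% and 35.6% in the same order. With no filter on low counts, 6 relatives were higher and 3 lower in HD-homo and 9 higher and 0 lower in HD-het cells against control, and 3 were higher and 6 lower between the HD lines. Over all genes, 4130 were then higher and 3933 lower, 4659 and 4301, and 5088 and 4945 in the same order. The medians of the log2 fold changes of the 10 that passed the filter were -0.28, 2.07 and -1.32. A relative that passed through the line where it is high, such as Gbp2b or Gvin1, had to differ. Gm5431, Gm12185, 9930111J21Rik1 and 9930111J21Rik2 share sequence and are not independent. These counts and medians therefore describe the 10 genes and not the families.

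Gbp2b, the neighbour of Gbp2, followed the GBPs of its cluster, with 1, 0 and 0 counts in control, 8, 10 and 8 in HD-het and 26, 39 and 33 in HD-homo cells. The ratio of summed counts to control was 86.2 in HD-homo (counting interval 15.1 to 3440; edgeR adjusted p = 1.70e-06) and 24.4 in HD-het cells (4.01 to 1000; adjusted p = 2.07e-04). Gbp9, a GBP of chromosome 5, was 2.67-fold higher in HD-homo and 3.44-fold higher in HD-het than in control cells, and the HD lines did not differ past the threshold (edgeR adjusted p = 0.335). Gvin1, a very large interferon-inducible GTPase, had 0, 1 and 0 counts in control, 3, 8 and 7 in HD-het and 36, 62 and 145 in HD-homo cells, with HD-homo 3 the highest as for Mx2. HD-homo cells exceeded HD-het cells 12.8-fold (edgeR adjusted p = 2.30e-04). Irgq, an IRG-like gene that is not known as interferon-inducible, was 1.59-fold below control in HD-homo cells (edgeR adjusted p = 9.87e-06), and F830016B08Rik passed the threshold in no comparison, with adjusted p of 0.0638 to 0.912.

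The 5 tested IRG genes next to Irgm1 were, like Irgm1, highest in HD-het cells. They are Gm5431, Gm12185, 9930111J21Rik1, 9930111J21Rik2 and Ifi47, and with Irgm1 they span chr11:48861968-49096974. Tgtp1 and Tgtp2, effector IRGs that share most of their sequence, lie in the same span and did not pass the filter. Tgtp1 had 1, 0 and 0 counts in control, 2, 6 and 4 in HD-het and 4, 7 and 11 in HD-homo cells. Its mean was highest in HD-homo cells (0.2055 CPM, beside 0.1197 CPM in HD-het cells). Tgtp2 had 2, 1 and 0 counts in control, 7, 11 and 9 in HD-het and 4, 7 and 11 in HD-homo cells. The mean of Tgtp2 was highest in HD-het cells (0.2674 CPM, beside 0.2055 CPM in HD-homo cells). Their shared reads cannot be separated, so no order of the HD lines is drawn from these 2 genes. For both, HD-homo libraries lay above control and overlapped HD-het, and the ratios of summed counts in HD-homo to control cells were 19.4 for Tgtp1 (counting interval 3.13 to 799) and 6.45 for Tgtp2 (1.94 to 33.7). The grouping by place was made after the values had been seen. Of the 6 tested genes with Irgm1, 6 were higher in HD-het than in control cells, and 6 had lower levels in HD-homo cells than HD-het cells had. The shares over all tested genes were 33.8% and 35.6%. Gm5431 shares 37.3% of its 50-base words with other genes, 27.2% with 9930111J21Rik1. Gm12185 shares 19.5% of its words with other genes, the largest part with Gm5431. Reads of Gm5431, Gm12185, 9930111J21Rik1 and 9930111J21Rik2 therefore cannot be separated completely, and the 6 genes are not 6 independent measurements. Ifi47 (Irgd), an effector IRG, had 0.342, 0.535 and 0.440 CPM in control, 1.66, 1.65 and 1.32 CPM in HD-het and 0.429, 0.284 and 0.418 CPM in HD-homo cells. HD-het libraries stood above the other lines, which overlapped, and Ifi47 was 3.51-fold higher in HD-het than in control cells (edgeR adjusted p = 5.08e-05). Gm5431 and Gm12185 were 4.36-fold and 4.66-fold higher in HD-het than in control cells. The near-identical 9930111J21Rik1 and 9930111J21Rik2, of which 80.4% and 56.1% of 50-base words occur in the other, were 4.41-fold and 4.09-fold above control in HD-het cells and 2.12-fold and 3.12-fold below it in HD-homo cells. Between these genes lies Psme2b, named after its values were seen, which differed from them. Its log2 fold change was 1.16 in HD-homo (edgeR adjusted p = 1.91e-07) and 0.39 in HD-het cells against control. Of tested neighbours beside the span, also named afterwards, Trim41, Zfp62 and Mgat1 had the direction of the IRG genes, with smaller changes. In HD-het cells against control their log2 fold changes were 0.24, 0.42 and 0.29. Between the HD lines they were -0.29, -0.32 and -0.16 (edgeR adjusted p under 0.05 for each). Rack1 went the other way, at -0.37 and 0.45, and Trim7 passed the threshold in neither comparison. This direction was thus not limited to the IRG genes. In contrast to the 6 tested IRG genes with Irgm1, other groups were higher in HD-homo cells when the HD lines were compared. These were the 4 tested GBPs of chromosome 3, the second IRG pair of chromosome 11 and the Mx pair, beside 36.0% of all tested genes. Several of them passed the filter only through HD-homo cells, where they are high, so this describes these genes alone. Gm12250, a processed pseudogene near Igtp, did not pass the filter, with means of 0.209 CPM in control, 0.109 CPM in HD-het and 0.106 CPM in HD-homo cells.

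**Figure D4:**
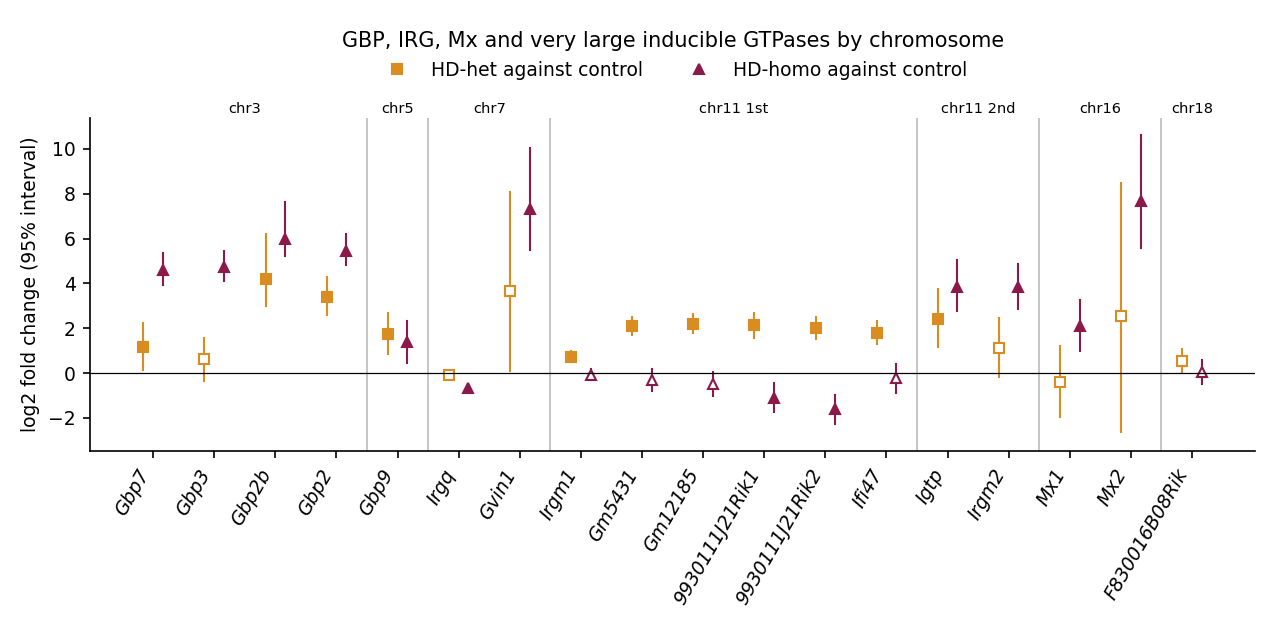
Log2 fold change with 95% interval of the 18 tested GBP, IRG, Mx and very large inducible GTPase genes, in chromosome order, for HD-het (squares) and HD-homo cells (triangles) against control cells, which both share; filled points passed adjusted p under 0.05. In the first group of chromosome 11, from Irgm1 to Ifi47, HD-het values lie above 0 and above those of HD-homo cells, whereas on chromosome 3 and in the second group of chromosome 11 HD-homo values are the higher.

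Interferon genes themselves were not detectable at this depth. Of 21 interferon genes, 0 passed the filter and 21 were at or under 3 counts in each library, and Ifnb1 and Ifng had 0 counts in all 9 libraries. Receptors and factors were well above the floor. Of 14 listed interferon receptors and JAK-STAT-IRF factors, 13 were tested, of which 7 were higher and 1 lower in HD-homo, 6 higher and 3 lower in HD-het against control cells, and 6 higher and 2 lower in HD-homo against HD-het cells. The shares over all tested genes were 29.6% and 28.9%, 33.8% and 31.4%, and 36.0% and 35.6% in the same order.

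Stat2, a part of the ISRE-binding complex, had 5.57, 5.86 and 5.65 CPM in control, 6.77, 7.65 and 6.499 CPM in HD-het and 20.2, 19.6 and 19.2 CPM in HD-homo cells. The 3 lines did not overlap, and the log2 fold changes against control were 1.79 in HD-homo (edgeR adjusted p = 1.96e-08) and 0.29 in HD-het cells (adjusted p = 0.0164). Irf9, of the same complex, was also higher in both lines, by 2.29 in HD-homo (edgeR adjusted p = 7.11e-07) and 0.81 in HD-het cells (adjusted p = 0.00209) on the log2 scale. Irf1, an early activator of GBP genes, was 17.1 ± 2.1 CPM in control, 9.79 ± 0.73 CPM in HD-het and 23.1 ± 4.1 CPM in HD-homo cells (SD, n = 3). It was lower in HD-het (log2 fold change -0.80, edgeR adjusted p = 3.22e-04) and higher in HD-homo cells (0.43, adjusted p = 0.0142), where control 3 lay above HD-homo 3.

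Among receptors, Ifngr2, a chain of the interferon-gamma receptor, was higher in HD-homo cells (log2 fold change 1.04, edgeR adjusted p = 1.46e-06) and did not pass in HD-het cells (0.18, adjusted p = 0.0899). Ifngr1, the other chain, was lower in both, by log2 fold changes of -0.41 and -0.33. Ifnar1, of the type I receptor, was higher in HD-het (0.55, edgeR adjusted p = 7.88e-05) and not called in HD-homo cells (0.12, adjusted p = 0.208), and Ifnar2 was higher in both, by 0.45 and 0.28. Ifnlr1, of the type III receptor, had 1 count in each HD-het library, a ratio of summed counts 29.5-fold below control (counting interval 9.75 to 146; edgeR adjusted p = 8.59e-06), and 1.25 CPM in HD-homo cells.

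**Figure D5:**
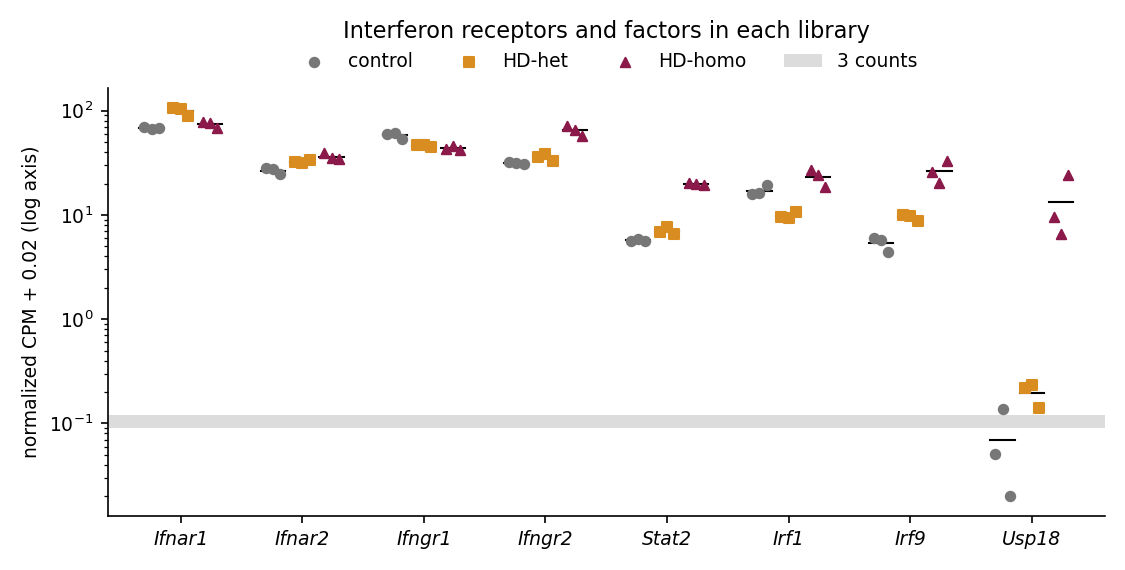
Level of 4 interferon receptor chains, 3 transcription factors and Usp18 in each of the 9 libraries, as normalized CPM plus 0.02 on a log axis, with symbols as for the GTPases and the level of 3 counts as a grey band. Stat2 and Irf9 step up from control to HD-het to HD-homo cells, Irf1 is lowest in HD-het cells, and Usp18 leaves the floor clearly in HD-homo cells.

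Of 6 listed negative regulators of interferon signalling, 4 were higher and 1 lower in HD-homo against control cells, and 0 were higher and 3 lower in HD-het against control cells. The shares over all tested genes were 29.6% and 28.9% in HD-homo and 33.8% and 31.4% in HD-het cells. Usp18, an interferon-induced protease that dampens type I signalling, had 1, 4 and 0 counts in control, 7, 7 and 4 in HD-het and 309, 275 and 808 in HD-homo cells, with HD-homo 3 again the highest. Its log2 fold change was 7.89 in HD-homo (edgeR adjusted p = 4.62e-06) and 1.69 in HD-het cells (adjusted p = 0.354). Socs3, a feedback inhibitor of JAK kinases, was the lowest of the list in HD-homo cells (-0.51) and Socs1 in HD-het cells (-1.25).

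Genes that work with GBPs and IRGs were read from the same fit. Of 9 listed inflammasome and caspase genes, 3 were tested, and 2 were higher in each HD line against control. Over all tested genes, 29.6% were higher in HD-homo and 33.8% in HD-het cells. Aim2, a sensor of cytosolic DNA, was higher by 2.26 on the log2 scale in HD-homo (edgeR adjusted p = 9.24e-05) and by 1.501 in HD-het cells (adjusted p = 0.00235), and Gsdmd, the pore-forming target of caspases, had 0.43 in HD-homo (adjusted p = 0.00483) and 0.01 in HD-het cells. Casp1 did not pass the filter and had 6, 10 and 14 counts in HD-het cells and 0 in all other libraries, at least 3.15-fold above control at the floor of 3 counts per library. Casp4 did not pass either and had 0, 1 and 0 counts in control, 0, 1 and 3 in HD-het and 7, 11 and 9 in HD-homo cells.

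Prenyl transferases and their partners, which attach and process the lipid that anchors some GBPs, were split. In HD-homo against control cells 3 of 6 were higher, 1 was lower and 2 did not pass, from 0.37 (Fnta) to -0.47 (Fntb) on the log2 scale, and in HD-het cells 1 was higher (Pggt1b, 0.42), 2 were lower, of which Rce1 was lowest (-0.60), and 3 did not pass. The shares over all genes were 29.6% higher and 28.9% lower in HD-homo and 33.8% and 31.4% in HD-het cells. Of 12 genes of the LC3 and GABARAP conjugation machinery, which guides IRGs and GBPs to vacuoles, 7 were higher and 2 lower in HD-homo and 8 higher and 2 lower in HD-het cells against control. Atg10 was highest in both (1.04 and 1.63), Atg16l2 lowest in HD-homo (-0.57) and Atg5 lowest in HD-het cells (-0.45). Of 10 dynamin-superfamily GTPases that interferon is not known to induce, 2 were higher and 2 lower in HD-homo and 4 higher and 3 lower in HD-het cells, from 1.17 (Dnm1) to -0.46 (Atl2) and from 0.99 (Atl1) to -0.25 (Opa1). The median over these 10 was 0.04 in both comparisons.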

How the data were processed

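The authors sequenced strand-specific libraries of poly(A) RNA and deposited raw counts of reads per gene symbol for 9 libraries. The submitters' processing notes name cutadapt, Bowtie 1.1.2, RSEM 1.3.0, DESeq2, GRCm38.p5 and mm10 without roles; the annotation and the strand setting of the counting are not given in the sources used here. The deposited counts were whole, whereas RSEM estimates need not be, so that rounding by the authors cannot be told apart from direct counting. The table lists 36410 genes. A date stands where the symbol should be for 26 of them.

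The tools were edgeR 4.0.16 in R 4.3.3. Its filterByExpr (minimum count 10) kept 13508 genes. Libraries were normalized by TMM (factors 0.984 to 1.03), and the 9 libraries entered 1 quasi-likelihood fit with the line as the factor. P values were two-sided and adjusted by Benjamini-Hochberg over all tested genes, with a threshold of 0.05. Fold changes are ratios of mean CPM. Where each library of a line had 3 counts or fewer, they are ratios of summed counts with an exact 95% counting interval, or bounds against that floor. Totals and floors are given with the results.

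The members and lists were chosen with earlier results of these data known. The text names all members, the tested relatives, Htt, the highest and the lowest gene of each other list among tested genes, and a fixed set of interferon, receptor, factor and caspase genes, of which 1 is not reported here and was left out of its list. Replicate numbers were not used to pair the libraries in the main fit. Alternatives were other normalization, filters, prior count and test (DESeq2 1.42.0), only the lines compared, the replicate number as a block, and leaving out each library. Positions and shared 50-base words come from GENCODE mouse release M21 on GRCm38, and promoter windows from RefSeq on GRCm38.p6.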

Additional observations from a re-analysis of the deposited data

How the results depend on the processing

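Over the member values, 349 of 359 alternative results kept their direction and their side of the threshold, 7 lost it, 2 gained it and 1 changed direction. The prior count of 2 changes fold changes and no p value, so its results could not cross the threshold. The 7 are the call of Gbp7 in HD-het against control cells. Those gained are Irgm2 in HD-het against control cells under the replicate block (1.09, adjusted p = 0.0483) and without HD-homo 3. With no filter, Gbp5 and Iigp1 were also tested, and both passed in HD-homo against HD-het cells (4.22 and 2.95, adjusted p = 0.0396 and 0.0297) and not in the other comparisons. Irgm1 in HD-homo against control cells, never called, ran from -0.19 (without control 3) to 0.023 (without control 1) as single libraries were left out. With at least 10 counts in every library, a filter that removes genes absent from a line by its construction, Irgm1 was the only member tested. The called members were 0 in HD-homo and 1 in HD-het against control cells and 1 between the HD lines, and the called relatives 2, 4 and 5. Over all genes 6750, 7762 and 8354 were called under this filter, beside 7910, 8797 and 9666 in the main fit. With a prior count of 2, Gbp2 was 4.60 and 2.62 in HD-homo and HD-het cells against control, and Mx2 5.39 against control and 4.41 between the HD lines. Without HD-homo 3, the differences between the HD lines were 1.85 for Mx1 and 4.13 for Mx2. Same-numbered libraries deviated together weakly, with correlations of -0.01 to 0.15 over genes, and differently numbered ones had -0.153 to 0.0645. Numbers 2 and 3 had 0.115 to 0.145 in the comparisons with HD-het cells. The labels do not say whether a number marks a shared batch, and this was not tested. With the replicate number as a block, 7 members were called in HD-homo and 5 in HD-het against control cells and 8 between the HD lines, beside 7, 4 and 8. Over all genes, 8372, 9160 and 9938 were called with this block. Size factors of DESeq2 moved the median over all genes by less than 0.01. No older symbol of a member was listed, so the planned sum of such listings was not run. Counts of 12 or fewer per library limit the control values of the 9 members other than Irgm1, the HD-het values of Mx1, Mx2, Gbp5 and Iigp1 and the HD-homo values of Gbp5 and Iigp1.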
